A study of Homo sapiens with 37 samples.

Results

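WI-38 is a strain of diploid fibroblasts from human fetal lung that divides a limited number of times in culture. Among 37 human libraries of total RNA, 8 came from an irradiation experiment and a late-passage experiment on this strain, and they were chosen by their group labels. The value followed through all genes is the irradiation response (IR+ minus IR-) minus the replicative response (Replicative Exhaustion minus Proliferating Control), on the log2 scale. A positive difference means that the irradiation response was the higher one, also where both responses lay below 0. It addresses whether a sudden dose of radiation and long passage left WI-38 cells with different transcripts.

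IR+ cells had received 10 Gy of ionising radiation at a population doubling level (PDL) of 25, and IR- cells were their controls at PDL 25. Replicative Exhaustion cells had reached PDL 53 to 55, and the Proliferating Control of that experiment stood at PDL 25. Each of the 4 groups held 2 libraries, and each experiment had controls of its own. All cells were grown in DMEM with 10% serum, and no transgene or drug is given for them. The labels do not give the time from radiation to harvest, nor whether the libraries of a group came from separate cultures, so p-values measure the spread between these libraries, which may be technical.

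Cells whose telomeres wear down over many divisions, and cells with broken DNA, both switch on the p53 and p16 pathways and leave the cell cycle for good. This state, senescence, is known for a secretome of chemokines, cytokines, proteases and growth factors that NF-κB drives in part, for enlarged lysosomes, and for interferon signalling set off by DNA in the cytoplasm. Lung fibroblasts also build the collagens and glycoproteins of the lung matrix.

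Levels are CPM, the counts scaled to a common library total, which compare 1 gene between libraries but not 1 gene with another, since they are not divided by length. The totals were adjusted by edgeR's TMM scaling, except for the levels of single cell type markers in this paragraph, which use the unadjusted total. The 8 libraries held 205854972 to 370996204 counts. In each of them genes with a count of 2 (1857 to 3407) outnumbered genes with a count of 1 (1018 to 1412), so both mates of a read pair may have been counted and the fragments may be fewer than the counts. Mitochondrial genes took 9.71% and 14% of the counts in IR+, 6.31% and 6.99% in IR-, 8.71% and 5.78% in Replicative Exhaustion and 3.21% and 4.41% in Proliferating Control cells. Of the fibroblast markers, VIM lay at 2730 to 4470 CPM and DCN at 948 to 2550 CPM across the libraries. The endothelial marker CDH5 had 0 to 20 counts and the leukocyte marker PTPRC 8 to 584. Other markers lay higher. The leukocyte marker CD68 had 26.4 to 58.7 CPM, the epithelial KRT18 9.39 to 28.4 and the smooth muscle ACTG2 163 to 909. Summed endothelial markers reached 157 and 123 CPM in IR+, 80.8 and 78.4 in IR-, 268 and 239.5 in Replicative Exhaustion and 169.7 and 168 in Proliferating Control cells, most of it TEK, at 58.3 to 246 CPM. The part of these markers in the results was not tested. Of 128 genes checked for shared sequence, 40 overlap exons of another gene on the opposite strand and 16 on the same strand, and the sources used here do not give the strand use of the counting, so their counts are uncertain by the reads of that neighbour. Those described below with such an overlap are A2M, IL6, SOD2, TNFAIP3, OAS1, C1R, C1S, PLK1, PIMREG, LMNB2, CDKN1A, CDKN2A, GLB1, MDM2, MMP1, MMP3, GREM1, WNT2, DDIT3, RDH10, DSG2 and WTAPP1. In bulk RNA, fewer cells of a type and less RNA per cell cannot be told apart.

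Most called genes of inflammation, lung matrix and lysosomes had the higher irradiation response, and most called mitotic genes the lower one. Of 31513 genes tested, 1481 (4.7%) had a higher and 668 (2.12%) a lower irradiation than replicative response at a Benjamini-Hochberg adjusted p below 0.05 in edgeR's quasi-likelihood test, and the median difference over all tested genes was -0.05. The irradiation response itself was higher for 2973 genes (9.43%) and lower for 2051 (6.51%). The replicative response was higher for 1949 genes (6.18%) and lower for 2395 (7.6%). Of the genes with no call for the difference, 750 rose in both experiments and 679 fell in both. Across the 14098 genes whose mean log2 CPM was 1 or more, the responses had a Pearson r of 0.484 and a Spearman rho of 0.449, given as a description because all genes share the same 8 libraries.

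The genes called higher came about in several ways. Of the 1481, 600 rose after radiation with no call in the passage experiment, 494 fell with passage and had no call after radiation, and 217 rose after radiation and fell with passage. A further 77 rose in both, 52 fell in both and 41 had no call in either. Of the 668 genes called lower, 244 fell after radiation only by call, 240 rose with passage only by call, 46 fell after radiation and rose with passage, 32 rose in both, 52 fell in both and 54 had no call in either.

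The counts moved with single libraries. Without IR- replicate 1 there were 613 higher and 311 lower genes, and without IR- replicate 2 there were 663 and 288. Without Proliferating Control replicate 1 there were 673 and 187, and without its replicate 2 there were 731 and 181. Without IR+ replicate 1 there were 1700 and 1951, and without IR+ replicate 2 there were 1976 and 980. Leaving out Replicative Exhaustion replicate 1 or 2 gave 1753 and 910 or 1168 and 629. In none of these settings was a called gene called in the opposite direction.

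**Figure D1:**
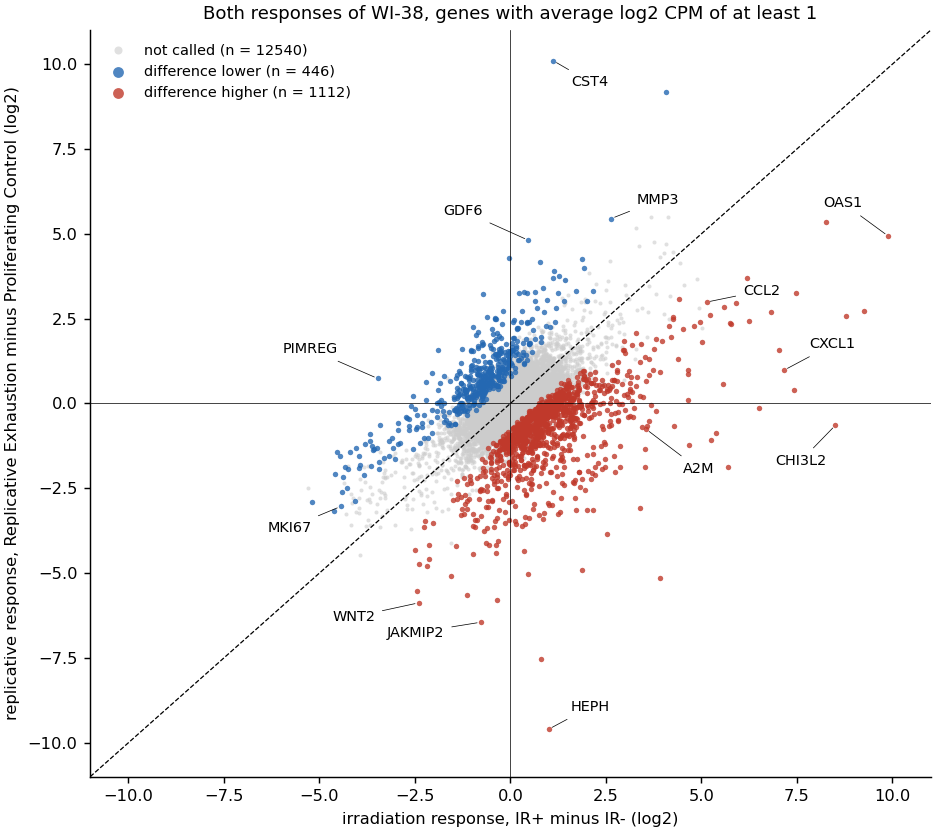
Each point is 1 of 14098 genes whose mean log2 CPM was 1 or more, with the irradiation response on the x axis and the replicative response on the y axis, both in log2. Red genes (1112) were called higher in the difference, blue genes (446) lower and grey genes were not called; the dashed line marks equal responses, with HEPH far below it and CST4 far above it.

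The same difference can be written as IR+ minus Replicative Exhaustion, less IR- minus Proliferating Control, and both terms were large. IR+ cells were higher than Replicative Exhaustion cells for 2459 genes (7.8%) and lower for 2283 (7.24%). IR- cells were higher than Proliferating Control cells for 3050 genes (9.68%) and lower for 3542 (11.2%), although both are labelled as controls at PDL 25. The gap between the controls was the larger term for 745 of the 1481 higher genes (50.3%) and for 348 of the 668 lower genes (52.1%). For 162 of the higher and 124 of the lower genes, IR+ and Replicative Exhaustion cells differed in the direction opposite to the difference. Experiment and treatment cannot be told apart here, because each response was measured within 1 experiment.

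A2M (ENSG00000175899), a broad inhibitor of proteases, shows a difference that lies between the controls. It had 131 and 85.8 CPM in IR+ cells and 9.76 and 8.64 in IR- cells, and 149 and 132 CPM in Replicative Exhaustion cells and 249 and 227 in Proliferating Control cells. Both IR- libraries lay far below the other 6, and the highest levels were in Proliferating Control cells. The difference was 4.32 ± 0.30 (SE, adjusted p = 0.000111), while IR+ minus Replicative Exhaustion was -0.38 and IR- minus Proliferating Control was -4.69. HEPH (ENSG00000089472), a copper oxidase that helps export iron, shows one that lies between IR+ and Replicative Exhaustion cells. It had 40.8 and 38.1 CPM in IR+ cells and 20.2 and 18.99 in IR- cells, and 0.0141 and 0.04101 CPM in Replicative Exhaustion cells and 24.3 and 20.6 in Proliferating Control cells. The Replicative Exhaustion libraries stood far below the other 6, and the difference was 10.60 ± 0.40 (adjusted p = 1.45e-05).

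**Figure D2:**
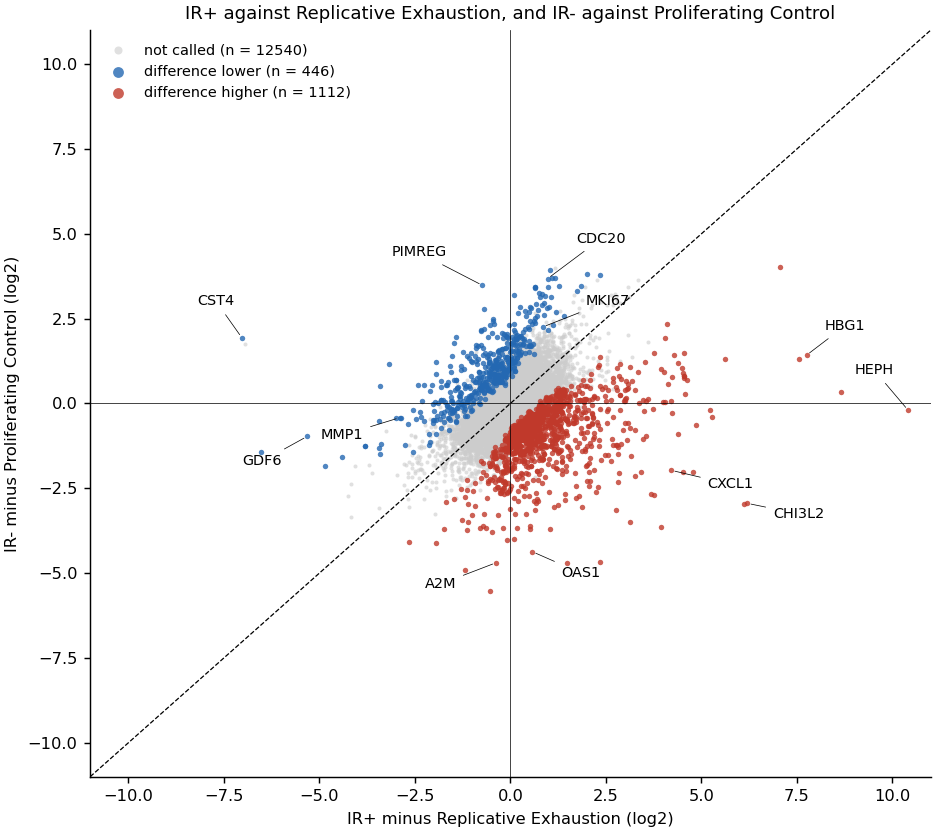
Each point is 1 of the same 14098 genes, with IR+ minus Replicative Exhaustion on the x axis and IR- minus Proliferating Control on the y axis, both in log2. The dashed line marks no difference of responses; HEPH lies far right near 0 on the y axis, while A2M and OAS1 lie near 0 on the x axis and far below it.

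Chemokines, the secreted proteins that draw leukocytes, had the widest gap of the lists. Of 20 tested, 13 had a higher and 0 a lower irradiation response, with a median difference of 5.44. The median SE of these differences was 1.04, and some members were very low, such as CXCL5 at 0.0795 and 0.0773 CPM in IR- libraries. Summed over the list, levels were 332 and 407 CPM in IR+ and 15.2 and 15.8 in IR- cells. They were 84.9 and 114.5 CPM in Replicative Exhaustion and 33.6 and 31.9 in Proliferating Control cells. After radiation 18 rose and 0 fell, and with passage 5 rose and 1 fell. IR- cells were lower than Proliferating Control cells for 10 and higher for 0. CXCL8 and CXCL1, both attractants of neutrophils, lie close together on chromosome 4, and their promoters are shown because NF-κB acts on this family. Each window runs from 250 bases before to 50 after the start of transcription on the plus strand (RefSeq, GRCh38.p14), at chr4:73740319-73740618 and chr4:73869143-73869442, and capitals mark the κB letters GGNNNTTCC, searched on both strands.
CXCL8: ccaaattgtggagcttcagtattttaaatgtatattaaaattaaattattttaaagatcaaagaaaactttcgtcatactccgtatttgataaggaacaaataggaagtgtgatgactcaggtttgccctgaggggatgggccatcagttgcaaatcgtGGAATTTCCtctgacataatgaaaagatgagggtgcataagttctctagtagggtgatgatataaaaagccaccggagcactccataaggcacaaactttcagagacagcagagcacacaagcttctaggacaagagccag
CXCL1: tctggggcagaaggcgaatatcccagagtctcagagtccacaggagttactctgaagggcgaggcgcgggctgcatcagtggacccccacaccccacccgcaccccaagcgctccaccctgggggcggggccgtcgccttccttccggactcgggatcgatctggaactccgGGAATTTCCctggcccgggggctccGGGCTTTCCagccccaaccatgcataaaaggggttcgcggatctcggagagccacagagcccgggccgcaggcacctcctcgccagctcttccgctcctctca
These letters were found in 10 of 16 chemokine promoters (62.5%) and in 12 of 26 promoters of the cytokine list (46.2%), against 20.1% of all 27305 promoters in the table and 22.1% of the 15069 matched to tested genes. They were in 21% of the 978 promoters matched to genes with a higher difference and in 22% of the 423 matched to genes with a lower one. A match describes the letters of the window and is not a binding site by itself.

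CXCL8 (ENSG00000169429) had 4.41 and 4.49 CPM in IR+ cells and 0.122 and 0.0281 in IR- cells, and 1.03 and 0.135 CPM in Replicative Exhaustion cells and 1.11 and 1.33 in Proliferating Control cells. Both IR+ libraries lay above all others and both IR- libraries below all others, and the Replicative Exhaustion libraries, far apart from each other, lay below Proliferating Control cells. The difference was 6.93 ± 1.19 (adjusted p = 0.00915), at levels that were low in every library. CXCL1 (ENSG00000163739) had 66.4 and 104 CPM in IR+ cells and 0.607 and 0.573 in IR- cells, and 6.02 and 3.15 CPM in Replicative Exhaustion cells and 2.43 and 2.196 in Proliferating Control cells. It was higher in both treated groups than in their controls, with a call for the irradiation response alone, and a difference of 6.18 ± 0.47 (adjusted p = 0.000173).

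CCL2 (ENSG00000108691), which draws monocytes, had 197 and 227 CPM in IR+ cells and 5.63 and 6.38 in IR- cells, and 65.2 and 102 CPM in Replicative Exhaustion cells and 10.7 and 10.4 in Proliferating Control cells. It rose in both experiments, by 5.14 and 2.99 on the log2 scale, and the difference was 2.15 ± 0.30 (adjusted p = 0.00304). CXCL12, which holds stem cells and lymphocytes in place, had 16.5 and 13.7 CPM in IR+ cells and 6.08 and 6.12 in IR- cells, and 1.64 and 1.096 CPM in Replicative Exhaustion cells and 13.6 and 11.7 in Proliferating Control cells. It rose after radiation and fell with passage, and the difference was 4.52 ± 0.33 (adjusted p = 0.000151). Leaving out any 1 library kept 12 to 13 chemokines higher by count.

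Cytokines and the feedback genes of NF-κB followed the chemokines in part. Of 30, 13 were higher and 0 lower, with a median of 1.82. After radiation 17 rose and 0 fell, and with passage 7 rose and 10 fell. In IR+ cells 13 were higher and 2 lower than in Replicative Exhaustion cells. In IR- cells 2 were higher and 12 lower than in Proliferating Control cells. IL6 (ENSG00000136244), the cytokine most often used to follow this secretome, had 69.1 and 85.1 CPM in IR+ cells and 6.29 and 6.201 in IR- cells, and 31.1 and 22.97 CPM in Replicative Exhaustion cells and 16.01 and 14.4 in Proliferating Control cells. It rose in both experiments without overlap between the groups, and the difference was 2.80 ± 0.27 (adjusted p = 0.00049). SOD2 (ENSG00000112096), the superoxide dismutase of mitochondria and a target of NF-κB, had 422 and 405 CPM in IR+ cells and 37.5 and 37.9 in IR- cells, and 143 and 109 CPM in Replicative Exhaustion cells and 193 and 211 in Proliferating Control cells. It rose after radiation and fell with passage, with a difference of 4.13 ± 0.23 (adjusted p = 4.35e-05).

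TNFAIP3, an enzyme that ends NF-κB signalling, went the same way as SOD2, with 13.1 and 17.1 CPM in IR+ cells and 3.52 and 2.96 in IR- cells, and 2.92 and 1.96 CPM in Replicative Exhaustion cells and 10.7 and 10.3 in Proliferating Control cells. The difference was 4.33 ± 0.35 (adjusted p = 0.000206). VCAM1, an adhesion protein for leukocytes, had 171 and 153 CPM in IR+ cells and 5.304 and 4.66 in IR- cells, and 109.7 and 122 CPM in Replicative Exhaustion cells and 32.8 and 33.4 in Proliferating Control cells. It rose in both, and of its difference of 3.21 ± 0.21 (adjusted p = 9.4e-05) the term between controls was the larger, at -2.73 against 0.48. IL1B, an upstream cytokine of the secretome, had a difference of 1.80 (95% interval 0.34 to 3.27, adjusted p = 0.143), and 2.58 (adjusted p = 0.0283) without Replicative Exhaustion replicate 2. Over the libraries left out, 11 to 15 of the list were higher.

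**Figure D3:**
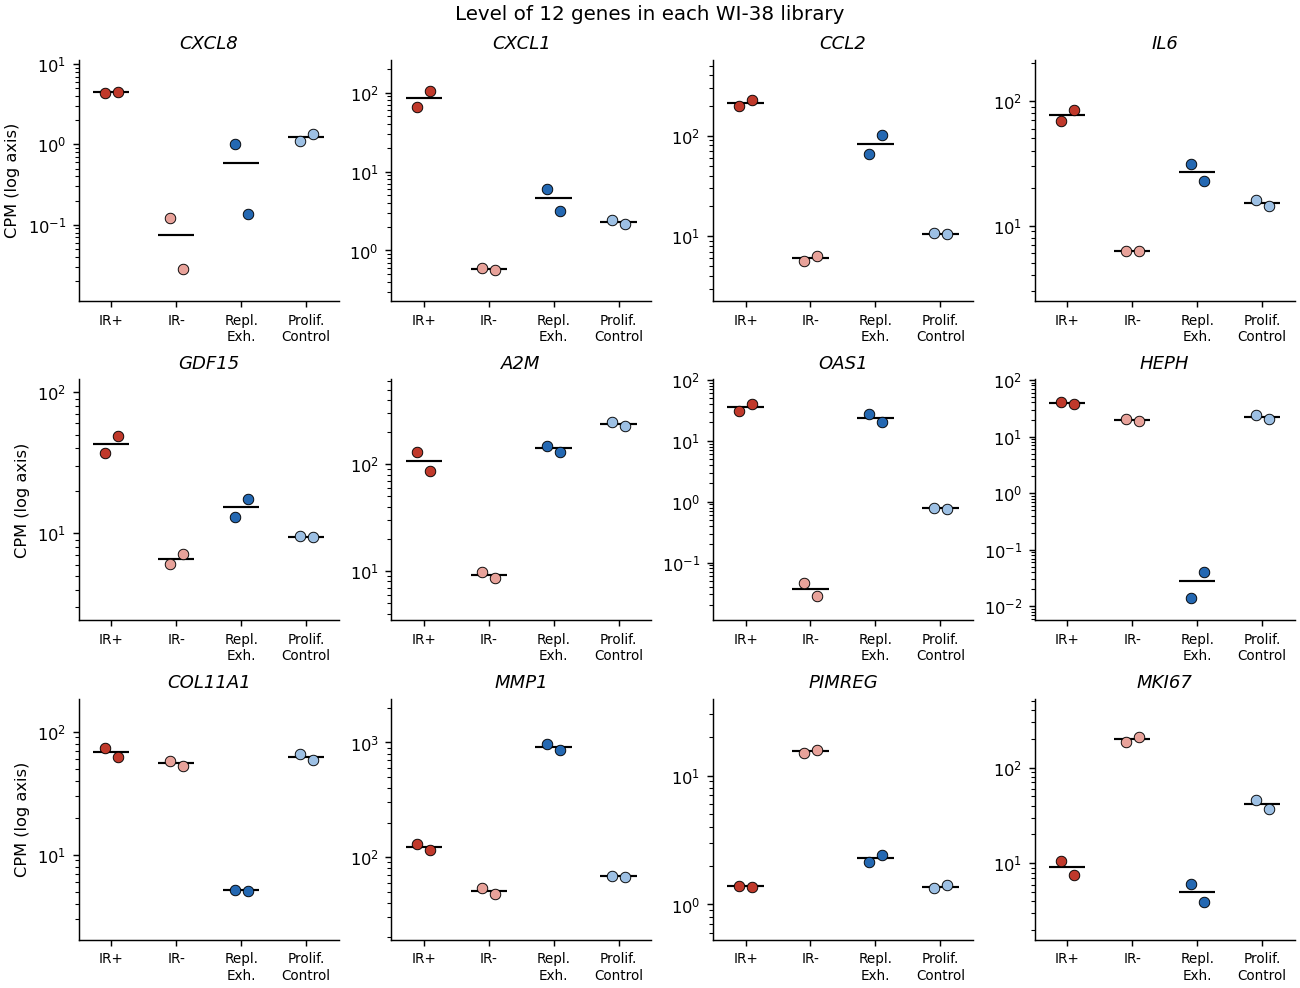
Each panel gives 1 of 12 genes, with CPM on a log axis and the 2 libraries of IR+, IR-, Replicative Exhaustion and Proliferating Control cells from left to right; points are libraries and bars are group means. CXCL8, CXCL1, CCL2, IL6 and GDF15 are highest in IR+ cells, A2M and OAS1 are lowest in IR- cells, HEPH and COL11A1 are lowest and MMP1 highest in Replicative Exhaustion cells, and PIMREG and MKI67 are highest in IR- cells.

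Most interferon-stimulated genes rose in both experiments, and some rose further after radiation. Of 30, 26 rose and 0 fell after radiation, with a median of 3.33, and 24 rose and 0 fell with passage, with a median of 1.76. The difference was higher for 12 and lower for 0, with a median of 1.2. Compared directly, 8 were higher and 1 lower in IR+ than in Replicative Exhaustion cells, while 0 were higher and 18 lower in IR- than in Proliferating Control cells. OAS1 (ENSG00000089127), which makes the signal that activates RNase L, had 30.96 and 40.7 CPM in IR+ cells and 0.0454 and 0.0281 in IR- cells, and 27.8 and 20.1 CPM in Replicative Exhaustion cells and 0.802 and 0.762 in Proliferating Control cells. The treated groups lay close together and the controls did not. Its difference of 4.95 ± 0.39 (adjusted p = 0.000195) was 0.58 between IR+ and Replicative Exhaustion cells and -4.37 between the controls.

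IFI6, an interferon-induced protein that slows apoptosis, was higher in IR+ cells themselves, with 459 and 489 CPM in IR+ cells and 6.65 and 6.34 in IR- cells, and 182 and 248 CPM in Replicative Exhaustion cells and 16.2 and 16.6 in Proliferating Control cells. The difference of 2.48 ± 0.24 (adjusted p = 0.000455) was 1.14 between IR+ and Replicative Exhaustion cells and -1.34 between the controls. Over the libraries left out, 10 to 16 genes of the list were higher. Of 18 genes of MHC class I presentation, 3 were higher and 0 lower with a median of 0.06, and 1 was higher without any 1 of the 4 control libraries. B2M, the light chain of MHC class I, had 1498 and 1687 CPM in IR+ cells and 343 and 368 in IR- cells, and 1105 and 1079 CPM in Replicative Exhaustion cells and 699 and 741 in Proliferating Control cells. It rose in both, with a difference of 1.56 ± 0.18 (adjusted p = 0.00113).

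Complement genes, part of the defence proteins in blood and tissue fluid, leaned to the irradiation response. Of 20, 9 had a higher and 0 a lower difference, with a median of 1.30. After radiation 14 rose and 1 fell, and with passage 3 rose and 4 fell. In IR+ cells 11 were higher and 1 lower than in Replicative Exhaustion cells. In IR- cells 0 were higher and 9 lower than in Proliferating Control cells. C1S, a protease that starts the classical pathway, had 955 and 1207 CPM in IR+ cells and 169 and 183 in IR- cells, and 487 and 446 CPM in Replicative Exhaustion cells and 661 and 677 in Proliferating Control cells. It rose after radiation and fell with passage, with a difference of 3.14 ± 0.21 (adjusted p = 0.000107). Its partner C1R and SERPING1, the inhibitor of both, did the same, with differences of 2.77 ± 0.23 and 4.07 ± 0.32 (adjusted p = 0.00022 and 0.000195). Without IR- replicate 2 the list had 6 higher members, and 6 to 12 over all libraries left out.

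Mitotic genes fell in both experiments, and for most called members the fall was larger after radiation. Of 32, 32 fell after radiation with a median of -3.68, and 29 fell and 0 rose with passage with a median of -2.01. The difference was higher for 1 and lower for 17, with a median of -1.72. The controls differed too: 28 were higher and 0 lower in IR- than in Proliferating Control cells, with a median of 2.08. In IR+ cells 12 were higher and 1 lower than in Replicative Exhaustion cells. Promoters of CDC20 and PLK1 are shown because many mitotic genes carry the cell cycle homology region TTTGAA, which binds repressor complexes in resting cells. The windows are chr1:43358731-43359030 and chr16:23678639-23678938 on the plus strand (RefSeq, GRCh38.p14), and capitals mark these letters on either strand.
CDC20: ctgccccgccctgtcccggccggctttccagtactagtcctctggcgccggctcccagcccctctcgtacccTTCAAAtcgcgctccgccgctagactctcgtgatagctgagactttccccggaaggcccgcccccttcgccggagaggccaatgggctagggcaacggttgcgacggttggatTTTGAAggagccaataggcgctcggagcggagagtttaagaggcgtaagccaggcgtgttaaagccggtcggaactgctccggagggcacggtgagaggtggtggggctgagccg
PLK1: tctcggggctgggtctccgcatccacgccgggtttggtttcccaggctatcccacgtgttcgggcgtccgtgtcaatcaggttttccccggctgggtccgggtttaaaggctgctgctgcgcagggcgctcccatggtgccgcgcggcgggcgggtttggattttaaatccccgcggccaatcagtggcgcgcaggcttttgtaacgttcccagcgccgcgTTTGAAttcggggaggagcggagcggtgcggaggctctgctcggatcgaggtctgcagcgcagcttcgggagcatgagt
TTTGAA was found in 20 of 27 mitotic promoters (74.1%), against 15.4% of all promoters and 11.6% of the 15069 promoters matched to tested genes. It was in 16.5% of the 423 promoters matched to genes with a lower difference and in 11% of the 978 matched to genes with a higher one.

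CDC20 (ENSG00000117399), which opens anaphase, had 1.695 and 1.54 CPM in IR+ cells and 23.2 and 29.6 in IR- cells, and 0.859 and 0.788 CPM in Replicative Exhaustion cells and 1.92 and 2.2 in Proliferating Control cells. The IR- libraries stood far above the other 6, and the difference was -2.71 ± 0.29 (adjusted p = 0.00079). PLK1 (ENSG00000166851), a kinase of mitotic entry, had 2.32 and 1.79 CPM in IR+ cells and 24.4 and 27.8 in IR- cells, and 1.37 and 1.25 CPM in Replicative Exhaustion cells and 2.86 and 2.06 in Proliferating Control cells. It had the same order of groups and a difference of -2.76 ± 0.32 (adjusted p = 0.0013). PIMREG (ENSG00000129195), a mitotic regulator, went further, since it fell after radiation and rose with passage. It had 1.396 and 1.37 CPM in IR+ cells and 14.99 and 15.7 in IR- cells, and 2.15 and 2.43 CPM in Replicative Exhaustion cells and 1.33 and 1.42 in Proliferating Control cells, with a difference of -4.21 ± 0.27 (adjusted p = 9.4e-05). ESPL1, the separase that cuts sister chromatids apart, moved the same way (-3.46 ± 0.35, adjusted p = 0.000614).

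MKI67 (ENSG00000148773), the usual marker of cycling cells, had 10.6 and 7.54 CPM in IR+ cells and 186 and 209 in IR- cells, and 6.11 and 3.98 CPM in Replicative Exhaustion cells and 45.5 and 37.2 in Proliferating Control cells. Its difference was -1.41 ± 0.34 (adjusted p = 0.0388). The adjusted p was 0.0802 without IR- replicate 1, 0.114 without IR- replicate 2, 0.0615 without Replicative Exhaustion replicate 1, 0.0835 without Proliferating Control replicate 1, 0.163 without its replicate 2 and 0.0749 in a fit that added 4 libraries given doxorubicin or its control. AURKA, a kinase of the spindle poles, was the 1 member with a higher difference, with 55.9 and 53.1 CPM in IR+ cells and 111 and 115 in IR- cells, and 21.7 and 22.4 CPM in Replicative Exhaustion cells and 104 and 104 in Proliferating Control cells. Its difference was 1.19 ± 0.19 (adjusted p = 0.00575), with an adjusted p of 0.0742 without IR- replicate 1 and 0.0627 without IR- replicate 2. The lower members numbered 11 without Proliferating Control replicate 1 or 2 and 24 without IR+ replicate 1.

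Most genes of DNA replication and of the lamina and chromatin fell in both experiments, with few calls for the difference, while histone genes moved both ways. Of 32 replication genes, 23 fell after radiation and 17 with passage, and 0 had a higher and 4 a lower difference, with a median of -0.50. TK1, which salvages thymidine, was among them, with 2.98 and 2.54 CPM in IR+ cells and 59.2 and 74.2 in IR- cells, and 1.199 and 1.24 CPM in Replicative Exhaustion cells and 5.03 and 5.28 in Proliferating Control cells (-2.52 ± 0.25, adjusted p = 0.000621). Of 24 genes of the nuclear lamina and chromatin, 22 fell after radiation and 14 with passage, and 1 was higher and 3 were lower in the difference. Of 20 tested histone genes 5 rose and 9 fell after radiation, 6 rose and 5 fell with passage, and in the difference 1 was higher and 4 were lower, and other histone genes were not analysed here. Of 20 genes of homologous recombination and Fanconi repair 15 fell after radiation and 8 with passage, and in the difference 0 were higher and 2 lower. Without IR+ replicate 1 the lower calls were 7 for replication, 9 for lamina and chromatin and 9 for repair; without any 1 control library 2 replication genes were lower; 1 repair gene was lower without IR- replicate 1, and 0 were without IR- replicate 2 or any 1 Proliferating Control library; without Proliferating Control replicate 2 1 lamina and chromatin gene was lower; without Replicative Exhaustion replicate 1 9 histone genes were, and without its replicate 2 6 repair genes were.

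LMNB1 (ENSG00000113368), a lamin that is lost in senescent cells, fell in both, with 1.09 and 2.47 CPM in IR+ cells and 11.9 and 11.4 in IR- cells, and 0.439 and 0.416 CPM in Replicative Exhaustion cells and 3.67 and 3.15 in Proliferating Control cells. The difference was 0.29 (95% interval -0.77 to 1.35, adjusted p = 0.782), and -0.41 without IR+ replicate 2. HMGB2, a chromatin protein that is lost as well, had a difference of 0.69 (0.18 to 1.2, adjusted p = 0.114). LMNB2, the other B-type lamin, fell after radiation with no call for passage. Its levels were 25.3 and 34.1 CPM in IR+ cells and 76.5 and 89.2 in IR- cells, and 24.4 and 30.4 CPM in Replicative Exhaustion cells and 26.6 and 23.5 in Proliferating Control cells (-1.61 ± 0.28, adjusted p = 0.0091, or 0.0543 without Proliferating Control replicate 2).

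Inhibitors of cyclin-dependent kinases, which can hold an arrest, had few calls for the difference. Of 7, 1 rose and 1 fell after radiation, and 0 rose and 3 fell with passage. CDKN1A (ENSG00000124762), the p21 protein that p53 induces, had 3200 and 4261 CPM in IR+ cells and 1850 and 2045 in IR- cells, and 1521 and 2207 CPM in Replicative Exhaustion cells and 1595 and 1512 in Proliferating Control cells. It rose after radiation, and the difference was 0.67 (95% interval 0.05 to 1.30, adjusted p = 0.192). CDKN2A, which encodes p16 and ARF, had 14.5 and 14.8 CPM in IR+ cells and 14.5 and 15.7 in IR- cells, and 12.2 and 14.3 CPM in Replicative Exhaustion cells and 14.4 and 12.8 in Proliferating Control cells. The groups overlapped, neither response was called, and the difference was -0.01 (-0.55 to 0.52, adjusted p = 0.995); a change in 1 of its transcripts cannot be seen in a gene count.

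CDKN2B, the p15 protein, had a difference of 0.97 (0.14 to 1.79, adjusted p = 0.16), and an adjusted p of 0.00926 without Replicative Exhaustion replicate 1. Of the 7 inhibitors CDKN1C, the p57 protein, was the 1 called, with 2.48 and 3.62 CPM in IR+ cells and 2.94 and 2.67 in IR- cells, and 0.753 and 1.03 CPM in Replicative Exhaustion cells and 2.73 and 3.68 in Proliferating Control cells. It fell with passage, and its difference of 1.97 ± 0.40 (adjusted p = 0.0198) had an adjusted p of 0.0877 without IR- replicate 1, 0.107 without IR- replicate 2 and 0.109 without Proliferating Control replicate 2. GLB1, the lysosomal galactosidase behind the common senescence stain, had a difference of 0.52 (0.02 to 1.02, adjusted p = 0.211).

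Targets of p53 leaned to the irradiation response. Of 28, 11 rose and 0 fell after radiation, 2 rose and 3 fell with passage, and the difference was higher for 7 and lower for 0, with a median of 0.67. Compared directly, 6 were higher and 2 lower in IR+ than in Replicative Exhaustion cells. Between the controls, 2 were higher and 12 lower in IR- than in Proliferating Control cells. GDF15 (ENSG00000130513), a stress hormone of the TGF-β family, had 37.1 and 49.2 CPM in IR+ cells and 6.06 and 7.17 in IR- cells, and 13.1 and 17.5 CPM in Replicative Exhaustion cells and 9.51 and 9.38 in Proliferating Control cells. IR+ libraries lay above all others, and the difference was 2.01 ± 0.29 (adjusted p = 0.00425). BTG2, which restrains proliferation, rose after radiation and fell with passage (2.20 ± 0.29, adjusted p = 0.00225). MDM2, the ligase that marks p53 for breakdown, had a difference of 0.94 (0.26 to 1.61, adjusted p = 0.106), and 1.25 (adjusted p = 0.00247) without IR+ replicate 2. The higher targets numbered 2 without IR- replicate 1 and 3 without IR- replicate 2.

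Matrix genes leaned to the irradiation response, through a rise after radiation in some and a fall with passage in others. Of 30 matrix glycoproteins and crosslinking enzymes, 2 rose and 13 fell with passage, 6 rose and 3 fell after radiation, and the difference was higher for 12 and lower for 0, with a median of 1.10. Of 24 collagen genes, 6 rose and 2 fell after radiation, 1 rose and 9 fell with passage, and in the difference 7 were higher and 0 lower, with a median of 0.87. COL11A1 (ENSG00000060718), a minor fibrillar collagen, had 74.1 and 62.5 CPM in IR+ cells and 58.1 and 52.7 in IR- cells, and 5.198 and 5.103 CPM in Replicative Exhaustion cells and 65.6 and 59.5 in Proliferating Control cells. Replicative Exhaustion libraries stood apart from the other 6, and the difference was 3.90 ± 0.22 (adjusted p = 4.48e-05). COL1A2, a chain of the main fibrillar collagen, rose after radiation and fell with passage, with 1176 and 1300 CPM in IR+ cells and 499 and 591 in IR- cells, and 517 and 491 CPM in Replicative Exhaustion cells and 764 and 773 in Proliferating Control cells (1.79 ± 0.19, adjusted p = 0.000802).

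POSTN, which links collagen to integrins, had 179 and 91.5 CPM in IR+ cells and 112 and 98.7 in IR- cells, and 17.6 and 12.7 CPM in Replicative Exhaustion cells and 301 and 319 in Proliferating Control cells. It fell with passage with no call after radiation, and the difference was 4.71 ± 0.42 (adjusted p = 0.000311). FMOD, which orders collagen fibrils, had 28.8 and 30.6 CPM in IR+ cells and 1.61 and 1.45 in IR- cells, and 9.18 and 6.87 CPM in Replicative Exhaustion cells and 13.8 and 11.8 in Proliferating Control cells. It rose after radiation and fell with passage (4.95 ± 0.29, adjusted p = 5.04e-05). Without IR- replicate 1 the glycoprotein list had 7 higher members. The collagens had 4 without IR- replicate 2, Proliferating Control replicate 1 or 2, or Replicative Exhaustion replicate 2.

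Matrix proteases and their inhibitors went in both directions. Of 23, 9 were higher and 3 lower, and the lower ones were MMP1, MMP3 and MMP10, neighbours in a cluster of matrix metalloproteinases. MMP1 (ENSG00000196611), an interstitial collagenase, had 129.8 and 115 CPM in IR+ cells and 53.9 and 47.5 in IR- cells, and 961 and 862 CPM in Replicative Exhaustion cells and 68.7 and 66.9 in Proliferating Control cells. It rose in both, far higher with passage, and the difference was -2.48 ± 0.20 (adjusted p = 0.000206). MMP3 (ENSG00000149968), stromelysin, had 36.6 and 46.98 CPM in IR+ cells and 6.596 and 6.795 in IR- cells, and 169 and 230.1 CPM in Replicative Exhaustion cells and 4.26 and 4.87 in Proliferating Control cells (-2.81 ± 0.28, adjusted p = 0.000537). MMP10 rose with passage with no call after radiation (-3.40 ± 0.46, adjusted p = 0.00276).

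TIMP3, an inhibitor of these enzymes bound to the matrix, rose after radiation and fell with passage, with 1544 and 1755 CPM in IR+ cells and 551 and 609 in IR- cells, and 698 and 1079 CPM in Replicative Exhaustion cells and 1702 and 1557 in Proliferating Control cells (2.38 ± 0.28, adjusted p = 0.0013). The higher members of the list numbered 5 without IR- replicate 1, IR- replicate 2 or Proliferating Control replicate 1, and the lower ones 3 without any 1 library.

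Growth factors had no common direction. Of 27, 7 were higher and 2 lower with a median of 0.10, of 19 TGF-β family members and antagonists 4 and 3, and of 12 genes of the IGF axis 2 and 1. GDF6 (ENSG00000156466), a bone morphogenetic protein, had 1.11 and 0.745 CPM in IR+ cells and 0.573 and 0.7699 in IR- cells, and 34.2 and 39.7 CPM in Replicative Exhaustion cells and 1.23 and 1.404 in Proliferating Control cells. It rose with passage alone by call, and the difference was -4.35 ± 0.36 (adjusted p = 0.000212). GREM1, an antagonist of bone morphogenetic proteins, rose after radiation and fell with passage, with 2164 and 2037 CPM in IR+ cells and 1155 and 1180 in IR- cells, and 538 and 527 CPM in Replicative Exhaustion cells and 1080 and 1046 in Proliferating Control cells (1.84 ± 0.17, adjusted p = 0.000326).

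WNT2, a Wnt ligand of lung development, fell in both and further with passage, with 3.92 and 2.68 CPM in IR+ cells and 17.04 and 17.8 in IR- cells, and 0.308 and 0.237 CPM in Replicative Exhaustion cells and 15.8 and 16.2 in Proliferating Control cells (3.47 ± 0.33, adjusted p = 0.00044). FST, which traps activin, fell after radiation with no call for passage, with 94.1 and 84.5 CPM in IR+ cells and 411 and 408 in IR- cells, and 434 and 261 CPM in Replicative Exhaustion cells and 203 and 244 in Proliferating Control cells (-2.84 ± 0.32, adjusted p = 0.00105). The higher growth factors numbered 3 without IR- replicate 1, 4 without IR- replicate 2 or Proliferating Control replicate 2, and the lower ones 7 without IR+ replicate 1 and 4 without IR+ replicate 2 or Replicative Exhaustion replicate 2. The lower TGF-β genes numbered 1 without IR- replicate 1, IR- replicate 2 or Proliferating Control replicate 1. The higher IGF genes numbered 1 without any 1 IR- library, 4 without IR+ replicate 1 and 5 without Replicative Exhaustion replicate 2.

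Most lysosomal genes rose after radiation, and fewer rose with passage. Of 30, 25 rose and 0 fell after radiation, 11 rose and 0 fell with passage, and the difference was higher for 15 and lower for 0, with a median of 0.80. IR+ and Replicative Exhaustion cells differed little when set side by side, with 2 higher and 2 lower in IR+ cells, whereas 1 was higher and 18 were lower in IR- than in Proliferating Control cells. CTSK, a collagen-degrading cathepsin, had 440 and 576 CPM in IR+ cells and 144 and 141 in IR- cells, and 493 and 403 CPM in Replicative Exhaustion cells and 672 and 649 in Proliferating Control cells. It was lowest in IR- cells, and the difference was 2.4 ± 0.24 (adjusted p = 0.000533). The higher members numbered 3 without IR- replicate 1, 4 without IR- replicate 2, 4 without Proliferating Control replicate 1, 6 without its replicate 2 and 10 without Replicative Exhaustion replicate 2, against 15 with all 8.

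Genes of the ATF4 and unfolded protein responses, which answer stress in the endoplasmic reticulum and shortage of amino acids, fell in part with passage. Of 25, 0 rose and 11 fell with passage, 6 rose and 5 fell after radiation, and the difference was higher for 11 and lower for 0, with a median of 0.74. DDIT3, a transcription factor of prolonged stress, had 55.5 and 72.7 CPM in IR+ cells and 28.5 and 31.6 in IR- cells, and 31.6 and 22.7 CPM in Replicative Exhaustion cells and 61.1 and 57.5 in Proliferating Control cells. It rose after radiation and fell with passage (2.22 ± 0.28, adjusted p = 0.00211). Without IR- replicate 1 or 2 6 or 5 members were higher, and without Proliferating Control replicate 1 or 2 6 or 7.

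Most ribosomal protein genes fell with passage. Of 50, 33 fell with passage and 2 after radiation, and 49 were higher in IR+ than in Replicative Exhaustion cells, with a median of 1.17. Between the controls, 18 were higher and 0 lower in IR- than in Proliferating Control cells, with a median of 0.54. The difference was higher for 14 and lower for 0, with a median of 0.66. RPL7, a protein of the large subunit, had 1900 and 2241 CPM in IR+ cells and 2127 and 2063 in IR- cells, and 826 and 841 CPM in Replicative Exhaustion cells and 2295 and 2101 in Proliferating Control cells (1.38 ± 0.18, adjusted p = 0.00238), and pseudogenes share part of its sequence. The higher members numbered 1 without IR- replicate 1 or 2 or Proliferating Control replicate 1, 3 without Proliferating Control replicate 2, 8 without Replicative Exhaustion replicate 1 and 24 without IR+ replicate 1.

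Most genes of sterol and fatty acid synthesis fell in both experiments, with few calls for the difference. Of 29 genes, 27 fell after radiation and 26 with passage, and 0 had a higher and 1 a lower difference, with a median of -0.28. Without Replicative Exhaustion replicate 1 there were 6 higher and 0 lower and the median was 0.22, without its replicate 2 0 and 8, and without IR+ replicate 2 0 and 5. Of 13 listed genes encoded in mitochondrial DNA, 7 rose after radiation and 12 with passage. In the difference 0 were higher and 0 lower by edgeR, with a median of -0.52. At an unadjusted p below 0.05 these were 0 and 4, and by DESeq2 0 and 3. The median was -0.11 without Replicative Exhaustion replicate 1 and -0.83 without its replicate 2. Summed, the 13 had 35160 and 33920 CPM in IR+ and 59100 and 44570 in Replicative Exhaustion cells. The shares of counts given above cover all mitochondrial genes and had the other order, with IR+ above Replicative Exhaustion cells. They include mitochondrial genes outside these 13. Over all tested genes, 12.1% were higher and 9.91% lower at an unadjusted p below 0.05. Contractile genes had 0 higher and 0 lower of 20 by edgeR, 2 and 3 at an unadjusted p below 0.05, and 0 and 2 by DESeq2, and over the libraries left out 0 to 1 were higher and 0 to 2 lower. Higher and lower genes numbered 5 and 2 of 26 for glycolysis and hypoxia, 3 and 1 of 22 for NRF2 targets, and 4 and 2 of 25 for AP-1 and immediate early genes. For glycolysis and hypoxia these were 0 and 0 without IR- replicate 1, 1 and 0 without IR- replicate 2, 2 and 0 without any 1 Proliferating Control library, 5 and 4 without IR+ replicate 2 and 3 and 1 without Replicative Exhaustion replicate 2. For NRF2 targets they were 1 and 2 without IR- replicate 1, 3 and 0 without IR- replicate 2 or any 1 Proliferating Control library, 3 and 3 without IR+ replicate 1 or Replicative Exhaustion replicate 1, 3 and 4 without IR+ replicate 2 and 5 and 2 without Replicative Exhaustion replicate 2. For AP-1 and immediate early genes they were 7 and 3 without IR+ replicate 1, and the lower ones numbered 1 without any 1 control library. Among markers of cell types they numbered 8 and 1 of 18 for fibroblasts, 0 and 2 of 11 for endothelium, 0 and 1 of 8 for epithelium, 0 and 0 of 13 for leukocytes (1 and 1 unadjusted, 1 and 0 by DESeq2), and 0 and 1 of 11 for smooth muscle. The higher fibroblast markers numbered 5 without any 1 IR- library or Proliferating Control replicate 1. The lower endothelial markers numbered 0 without any 1 control library, 4 without IR+ replicate 1 and 1 without IR+ replicate 2 or Replicative Exhaustion replicate 1, and over all libraries left out the higher ones numbered 0 to 1. The lower epithelial and smooth muscle markers numbered 0 to 2 and 1 to 2 over the libraries left out, the highest without Replicative Exhaustion replicate 1 and, for smooth muscle, also without IR+ replicate 2.

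**Figure D4:**
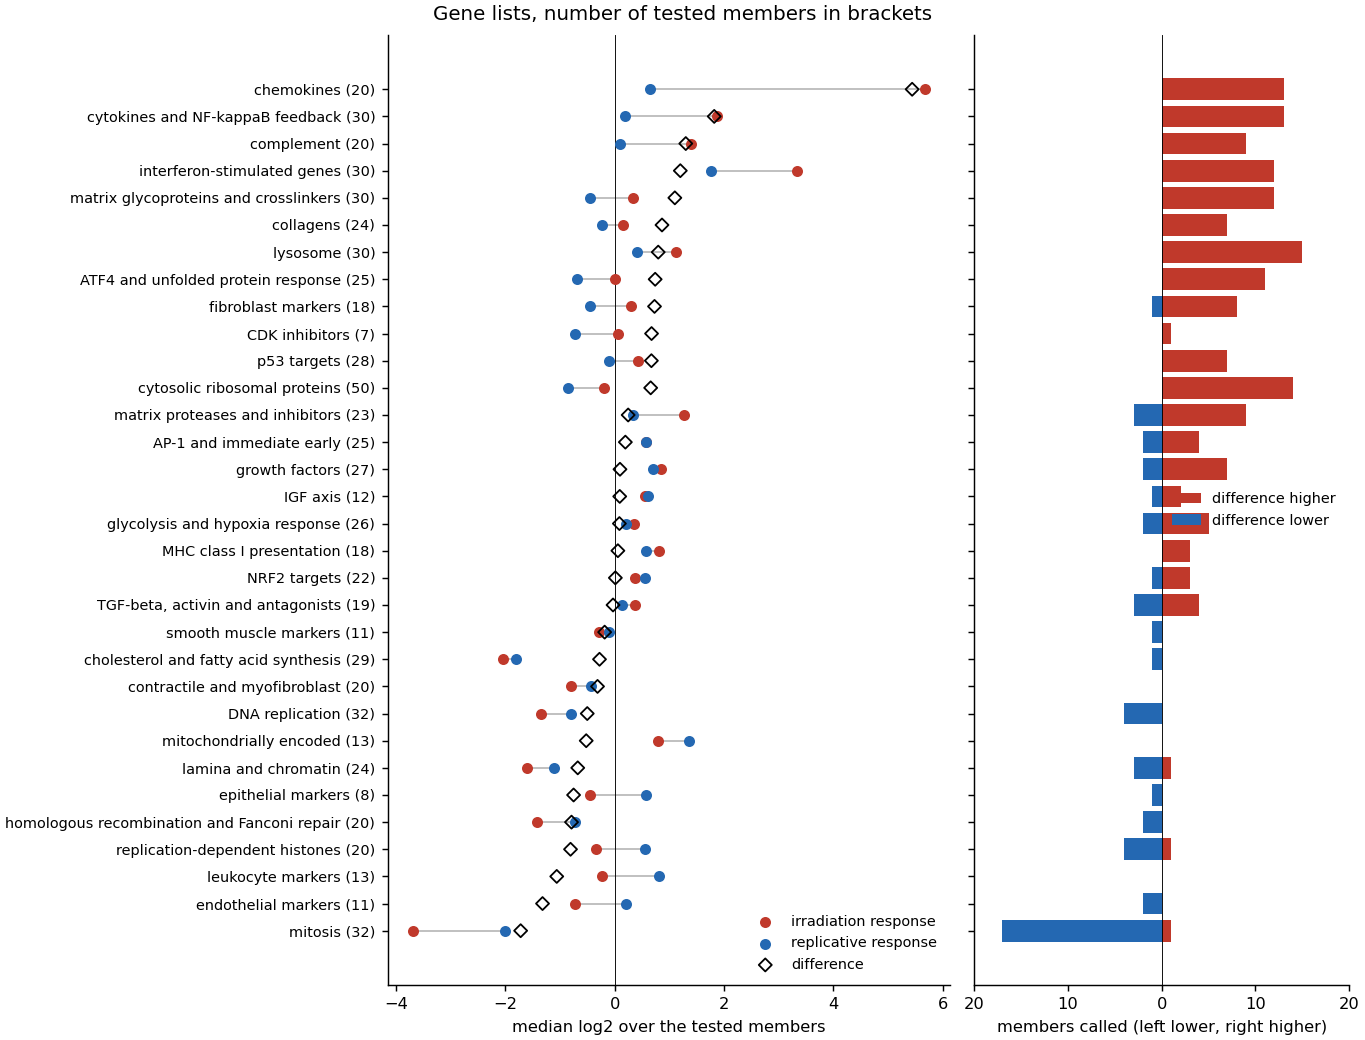
Left, the median log2 value over the tested members of each gene list (number in brackets) for the irradiation response (red), the replicative response (blue) and their difference (open diamonds); right, bars count members called higher (red) and lower (blue) in the difference. Chemokines have the highest median difference (5.44) and mitotic genes the lowest (-1.72).

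Several genes outside the lists were among those with the smallest adjusted p. CHI3L2 (ENSG00000064886), a chitinase-like secreted protein, had 14.7 and 20.6 CPM in IR+ cells and 0.0596 and 0.0352 in IR- cells, and 0.283 and 0.196 CPM in Replicative Exhaustion cells and 0.406 and 0.339 in Proliferating Control cells. IR+ libraries stood alone, and the difference was 9.15 ± 0.48 (adjusted p = 4.35e-05). HSD11B1, which regenerates cortisol inside cells, rose after radiation and fell with passage, with 10.9 and 9.85 CPM in IR+ cells and 0.185 and 0.218 in IR- cells, and 0.824 and 0.539 CPM in Replicative Exhaustion cells and 2.21 and 2.77 in Proliferating Control cells (7.56 ± 0.41, adjusted p = 4.35e-05). CPE, a carboxypeptidase that matures peptide hormones, moved the same way, with 69.6 and 63.8 CPM in IR+ cells and 12.7 and 12.8 in IR- cells, and 9.46 and 9.52 CPM in Replicative Exhaustion cells and 34.95 and 37.3 in Proliferating Control cells (4.32 ± 0.21, adjusted p = 4.35e-05). All 3 were lower in IR- than in Proliferating Control cells.

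SERPINF1, which encodes the angiogenesis inhibitor PEDF, had 138 and 160.4 CPM in IR+ cells and 76.2 and 72.5 in IR- cells, and 19.7 and 23.9 CPM in Replicative Exhaustion cells and 179 and 169 in Proliferating Control cells (4.00 ± 0.22, adjusted p = 4.35e-05). RDH10, which makes retinal on the way to retinoic acid, had 251 and 263 CPM in IR+ cells and 37.3 and 36.2 in IR- cells, and 99.95 and 101 CPM in Replicative Exhaustion cells and 147 and 142 in Proliferating Control cells (3.33 ± 0.18, adjusted p = 4.35e-05). Both rose after radiation and fell with passage. In the other direction, MCTP2, a membrane protein with C2 domains, had 16.2 and 14.5 CPM in IR+ cells and 12.4 and 11.7 in IR- cells, and 163 and 170.3 CPM in Replicative Exhaustion cells and 16.5 and 17.8 in Proliferating Control cells (-2.93 ± 0.20, adjusted p = 0.000111). DSG2, a desmosomal cadherin, rose in both and more with passage, with 4.56 and 4.56 CPM in IR+ cells and 2.57 and 2.45 in IR- cells, and 71.2 and 55.4 CPM in Replicative Exhaustion cells and 6.15 and 5.74 in Proliferating Control cells (-2.55 ± 0.25, adjusted p = 0.00049).

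A DNA damage response outside the 8 comes from 4 further WI-38 libraries at PDL 25, labelled as a repeat: cells given doxorubicin, a drug that breaks DNA, at 2 µg/mL for 24 h, and their controls, with 2 libraries each. In a fit of 12 libraries, doxorubicin raised 1070 of 33612 genes (3.18%) and lowered 761 (2.26%). Of the 1481 genes with a higher difference, doxorubicin raised 283 (19.1%) and lowered 113 (7.63%). Of the 668 with a lower difference, it raised 62 (9.28%) and lowered 59 (8.83%). Doxorubicin raised CXCL1 by 6.32 (adjusted p = 5.18e-05) and CCL2 by 4.34 (adjusted p = 1.09e-06), and A2M had 0.53 (adjusted p = 0.301).

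IMR-90, another strain of fetal lung fibroblasts, was irradiated with 10 Gy at PDL 15 (IR+) and grown to PDL 52, with 2 libraries each and 2 at PDL 15 as the control of both. With a shared control the difference of responses is IR+ minus PDL52. These 6 libraries differed in make-up from the 8 of WI-38, with 5.38% to 6.98% of counts on small RNA genes, against 0.0207% to 0.138% in WI-38. The cycling marker MKI67 had 30.6 and 27.5 CPM in IR+ and 21.95 and 17.4 in PDL52 libraries, against 18.97 and 16.6 in PDL15 libraries, so it was not lower in either treated group. CDKN1A had 685 and 685 CPM in IR+ and 595 and 442 in PDL52 libraries, against 194 and 185 in PDL15 libraries.

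Few genes of any kind were called in the IMR-90 difference, and most genes called in WI-38 had no call there. Of 34920 genes, 92 (0.263%) were higher and 82 (0.235%) lower in IMR-90 IR+ than in PDL52 libraries. Of the 1481 genes higher in WI-38, 48 (3.24%) were higher and 24 (1.62%) lower in IMR-90. Of 667 of the genes lower in WI-38, 7 (1.05%) were higher and 10 (1.5%) lower. Seen from IMR-90, 48 of its 92 higher genes were also higher in WI-38 and 7 were lower there. Of its 82 lower genes, 24 were higher in WI-38 and 10 lower. Tested against each other with the sign kept, 1808 genes (5.18%) had a higher and 1008 (2.89%) a lower difference in WI-38 than in IMR-90. Without IMR-90 IR+ replicate 1 or 2 these counts were 994 and 547 or 972 and 572, without PDL52 replicate 1 or 2 they were 1129 and 603 or 1034 and 550, and without WI-38 Proliferating Control replicate 1 or 2 they were 1157 and 560 or 1094 and 557. Without IR- replicate 2 there were 1340 and 626, without IR+ replicate 1 2287 and 2518, without IR+ replicate 2 2647 and 1949, and without Replicative Exhaustion replicate 1 2311 and 2110. GDF15 was called in both strains, with 94.7 and 104 CPM in IMR-90 IR+ and 30.6 and 14.6 in PDL52 libraries (2.13 ± 0.27, adjusted p = 0.0033), and the strains differed by -0.12 (95% interval -1.09 to 0.84, adjusted p = 0.957). GDF6 was lower in both, with 0.869 and 0.779 CPM in IMR-90 IR+ and 8.96 and 8.696 in PDL52 libraries (-3.42 ± 0.22, adjusted p = 1.75e-05).

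MMP1 went the opposite way, with 343 and 360 CPM in IMR-90 IR+ and 165 and 191 in PDL52 libraries (0.98 ± 0.13, adjusted p = 0.00406). CXCL8 had 3.53 and 4.08 CPM in IMR-90 IR+ and 2.33 and 1.14 in PDL52 libraries (1.13 ± 0.57, adjusted p = 0.774), and CCL2 had 8.92 and 9.21 CPM in IMR-90 IR+ and 14.4 and 18.1 in PDL52 libraries (-0.85 ± 0.19, adjusted p = 0.0977). The gap between the WI-38 controls enters the contrast of the strains, since the shared control of IMR-90 cancels. The make-up of the libraries moves with the strain, and its part in this contrast was not tested.

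**Figure D5:**
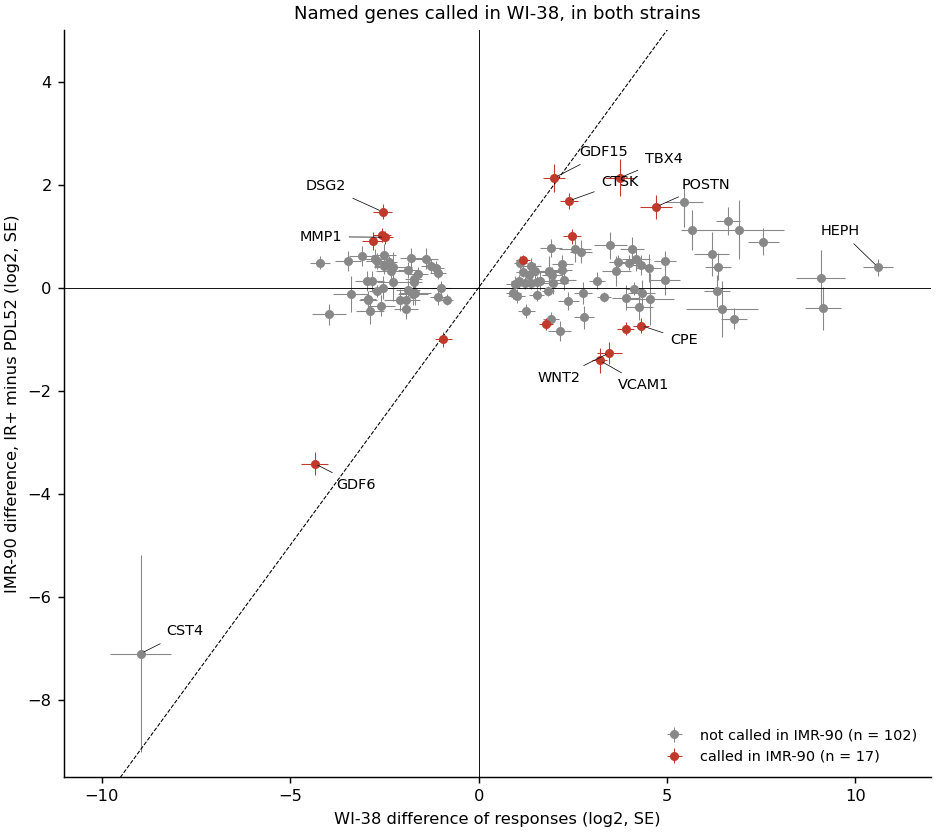
Each point is 1 of 119 named genes called in the WI-38 difference (x axis) with its IMR-90 difference (y axis), both in log2 with bars of 1 SE; red genes (17) were also called in IMR-90. GDF15, CTSK, POSTN, TBX4 and GDF6 lie on the same side of 0 in both strains, and DSG2, MMP1, CPE, WNT2 and VCAM1 on opposite sides.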

How the data were processed

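Total RNA depleted of ribosomal RNA was sequenced. The authors deposited whole-number counts per gene, made with bcl2fastq, cutadapt, STAR 2.4 and featureCounts on hg19, per the submitters' processing notes. Settings, annotation and strand use were not given in the sources used here. Symbols were given to 52338 of 57773 identifiers.

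From the counts, edgeR 4.0.16 (R 4.3.3, TMM scaling, filterByExpr) fitted 1 mean per group to the 8 libraries (31513 genes, 4 residual degrees of freedom, 37.1% coefficient of variation between replicates) and tested each contrast with its quasi-likelihood test and Benjamini-Hochberg adjustment over all genes. A 12-library fit added the doxorubicin repeat (33612 genes) and a 14-library fit added IMR-90 (34920 genes). Intervals are 95%, and the code was tested on simulated data. Replicates of 1 group differed by more than counting noise, so each library counts as 1. The chi-square per degree of freedom, which counting both mates of a read pair would raise, was 533 in IR+ and 466 in Replicative Exhaustion cells. It was 65.9 in IR- and 79.5 in Proliferating Control cells. The median SD between replicates in log2 was 0.227, 0.217, 0.0934 and 0.0651 in the same order. The fit shared 1 spread per gene over the 4 groups although the controls varied less. The effect of this on standard errors and intervals was not tested.

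The genes, lists and tests were chosen with earlier results of these data known. Named genes are 14 chosen markers, the 12 per direction with the smallest adjusted p among genes whose mean log2 CPM was 1 or more, the 5 per direction with the largest difference among genes called oppositely in both responses, and the 3 per direction with the smallest adjusted p in each list, 127 in all; a selection is described. DESeq2 1.42.0, other scalings, filters, fits and libraries left out were alternatives.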

Additional observations from a re-analysis of the deposited data

Results flagged for a closer look

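Genes stood out here because the difference of responses itself differed between WI-38 and IMR-90, tested in 1 fit of 14 libraries with edgeR's quasi-likelihood test. With its sign kept, the difference was higher in WI-38 for 1808 genes and lower for 1008. Lower here can mean further below 0 and is not a smaller size. Of 119 named genes called in WI-38, 8 were called the same way in IMR-90 and 9 the opposite way. Apart from the markers CXCL8, CCL2 and A2M, the genes below were selected because they were called in opposite directions in WI-38 and IMR-90. Their reversal follows from that selection. Among the named genes called in this test, MMP1, MMP3 and WTAPP1 had strain differences of -3.46, -3.72 and -3.60. WTAPP1 is a transcript that overlaps MMP1 and MMP3 on the opposite strand. In WI-38 the irradiation response of these genes lay below their replicative response. In IMR-90, where the shared control cancels, IR+ libraries were above PDL52 libraries by 0.98, 0.91 and 1.03. DSG2 did the same, with a strain difference of -4.02 and 1.47 in IMR-90.

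In the other direction, COL1A2 (2.5), COL11A1 (4.70), WNT2 (4.74), CPE (5.05) and VCAM1 (4.63) had a higher difference in WI-38 and a called lower one in IMR-90, at -0.71, -0.79, -1.27, -0.74 and -1.41 in the same order. CCL2 (3.00), A2M (3.88) and CXCL8 (5.79) had no call in IMR-90, at -0.85, 0.44 and 1.13. These strain values also hold the gap between the WI-38 controls, because the shared control of IMR-90 cancels. IR- minus Proliferating Control was -0.50, -0.18, 0.13, -1.50 and -2.73 for COL1A2, COL11A1, WNT2, CPE and VCAM1, and -4.69 for A2M. For MMP1, MMP3, WTAPP1 and DSG2 it was -0.42, 0.55, -0.42 and -1.245. Levels of CXCL8 and CCL2 were also lower in both IR- libraries than in both Proliferating Control libraries. The share of small RNA counts, 5.38% to 6.98% in IMR-90 and 0.0207% to 0.138% in the WI-38 libraries, moves with the strain. The part of either in these values was not tested.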

How the results depend on the processing

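Of 119 named genes called in the difference, 88 were called under all 15 alternatives and 31 were lost under at least 1. With no filter on low counts, 1554 genes had a lower difference, 3019 a higher replicative response and 3811 were lower in IR+ than in Replicative Exhaustion cells. With all 37 libraries in 1 fit, higher and lower genes numbered 3230 and 3323 for the difference, 5071 and 5753 for the irradiation response, 4556 and 4592 for the replicative response, 5494 and 5968 for IR+ minus Replicative Exhaustion and 6332 and 6155 for IR- minus Proliferating Control. With the DESeq2 Wald test, 1737 genes were lower in the difference, 3703 lower after radiation, 3141 higher with passage, 3909 lower in IR+ than in Replicative Exhaustion cells and 4686 higher in IR- than in Proliferating Control cells. The cause was not tested. With DESeq2 size factors, 1295 of the 1481 higher genes (87.4%) and all 668 lower genes remained called.

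Leaving out 1 library, which leaves 1 library in its group that is assumed to vary like the others, gave 613 to 1976 higher and 181 to 1951 lower genes for the difference, 1189 to 3412 and 841 to 4241 for the irradiation response, 608 to 3053 and 981 to 3594 for the replicative response, 1348 to 3544 and 959 to 5037 for IR+ minus Replicative Exhaustion, 433 to 4768 and 743 to 5245 for IR- minus Proliferating Control, and 972 to 2647 and 547 to 2518 for WI-38 minus IMR-90, the last chosen after seeing the data. The direction turned round for LMNB1 (-0.41 without IR+ replicate 2, in a range of -0.41 to 0.66) and CDKN2A (0.02 without Replicative Exhaustion replicate 2 and 0.079 without Proliferating Control replicate 2, in a range of -0.16 to 0.079), neither of them called. Among lists with 0 lower members, the collagens had 2 lower without Replicative Exhaustion replicate 2, and interferon, MHC class I, complement, glycoprotein, ATF4 and lysosomal genes had at most 1 lower without any 1 library.

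The replicate numbers do not pair the libraries by any label. Deviations of same-numbered libraries correlated at 0.46 for IR+ with IR-, 0.574 for IR+ with Replicative Exhaustion and 0.396 for IR- with Replicative Exhaustion, but at -0.178, -0.0824 and -0.217 for IR+, IR- and Replicative Exhaustion with Proliferating Control. With the replicate number as a block, 1846 genes were higher and 944 lower in the difference, and 1912 and 1086 in WI-38 minus IMR-90. With 2 libraries a group and 4 residual degrees of freedom, and with separate controls for each experiment, the number of libraries limits what the tests can call; depth was not varied.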
